A study of Mus musculus with 6 samples.

Results

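Fzd1, Fzd2, Ctnnb1 and Wnt5a are 4 genes of the Wnt pathway that were the nearest gene of at least 1 window with a methylation difference in mouse bone marrow cells expressing mutant IDH1 or exposed to its metabolite. They were chosen by the gene symbol that the authors' deposited tables give to each window. These tables list only windows past a threshold, so the listing, size and direction of a window are described here and were not tested. Counting each chromosome and start once, 8 windows of 2135 in the 3 tables belonged to the 4 genes. They made up 11 of 2846 entries, because 3 of the 8 windows stood in 2 tables. Fzd1 and Fzd2, the receptor genes, were the only ones of the 4 with windows in 2 tables. A window downstream of the Fzd1 start was more methylated in both IDH1mut and R-2HG cells than in IDH1wt cells. At Fzd2, 2 windows downstream of the start were more methylated in IDH1mut cells than in either other group. Each pattern follows from the pair of tables that list the window. The 2 differences had the same sign at 385 of 385 windows listed as for Fzd1 and at 0 of 248 listed as for Fzd2. The windows assigned to Ctnnb1 and Wnt5a were less methylated than in IDH1wt, each in 1 comparison, and lay far from the gene.

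Wnt proteins are secreted ligands that bind Frizzled receptors together with the co-receptors Lrp5 or Lrp6. In the canonical branch this stops a destruction complex built on Axin and Apc from marking beta-catenin for degradation, and beta-catenin then enters the nucleus and acts with TCF/LEF factors on target genes. In blood, the pathway is known for its part in stem cell self-renewal, and beta-catenin is required for self-renewal of some leukaemias driven by Hox genes. Methylation of CpG-rich sequence near a start site is often associated with silencing, but expression was not measured in these data.

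The cells were bone marrow cells of the C57BL6 strain immortalised with HoxA9, a homeobox factor that sustains self-renewal of myeloid progenitors, and all 3 groups share that background and the transplantation into irradiated mice. IDH1wt cells (2 libraries) carried pSF91-IDH1wt-IRES-EGFP, and IDH1mut cells (2 libraries) carried pSF91-IDH1mut-IRES-GFP, whose comparison is named R132C in the deposited data. R-2HG cells (2 libraries) carried the empty vector in mice that received R-2HG, the metabolite made by the mutant enzyme, at 1 mg per day for 4 weeks. GFP-positive cells were sorted from bone marrow after 4 weeks and their DNA was read by reduced representation bisulfite sequencing (RRBS), which samples CpGs next to MspI sites. Effects of the empty vector and of the metabolite cannot be told apart in the R-2HG cells. The labels state neither the ages of the mice nor whether replicate libraries are from different animals.

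Each value below is the authors' difference between 2 groups in percentage points over a window of 500 bp, with no group level, coverage or replicate value beside it. The depth behind a value is therefore unknown, and the differences have no replicate error here. Where a window is listed in 1 table or none, the missing differences may be below 25 points, past the authors' q limit or not covered. These cannot be told apart. At the 705 windows listed in exactly 2 tables, subtraction put the remaining difference under 25 points. Differences are written with IDH1wt subtracted wherever it is one of the groups, and otherwise as R-2HG minus IDH1mut. The data fix how the 3 tables stand to each other but not which way round the whole set runs, so under the opposite reading every "higher" becomes "lower". Coordinates are those of the files, build mm9. No annotation of that build was used here, so exon, intron and UTR are not assigned, and a gene symbol says only which start site was nearest.

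In the authors' deposited table of IDH1mut with IDH1wt, 5 windows of 3 of the 4 genes were listed, 3 of them higher and 2 lower in IDH1mut. Of all 1493 windows listed there 69.3% were higher. For R-2HG against IDH1wt the authors' deposited table had 2 windows of 2 genes, 1 higher and 1 lower in R-2HG, where 68.0% of all 750 windows were higher. For R-2HG against IDH1mut the authors' deposited table had 4 windows, all nearest to Fzd2 and none of them higher in R-2HG, where 35.5% of all 603 windows were higher. Nothing is read from these shares, since the same tables chose the genes. The median size of the listed differences was 29.3, 26.5 and 30.9 points for the 4 genes in the order of the 3 comparisons, beside 29.999, 29.2 and 29.1 points for all listed windows in the authors' deposited tables. The medians for the 4 genes rest on 5, 2 and 4 windows of 3, 2 and 1 of the genes, the last being Fzd2 alone. Nothing is read from how they stand to those of all listed windows. The Fzd1 and Fzd2 windows began 1008 to 2008 bp downstream of a start site, whereas those of Wnt5a and Ctnnb1 were more than 100 kb away.

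**Figure D1:**
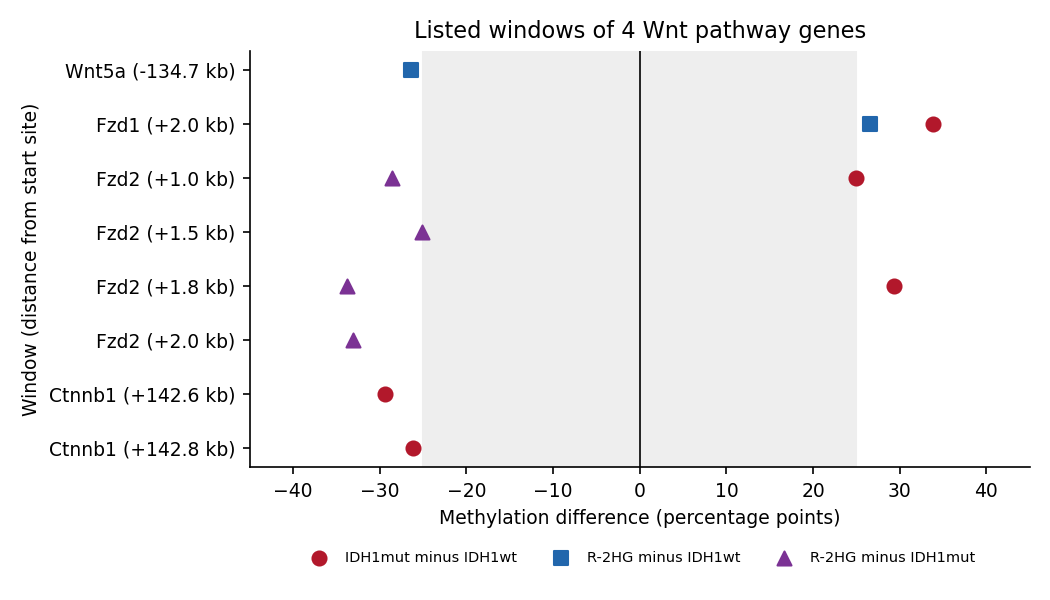
Methylation difference in percentage points (x axis) of each of the 8 listed windows, named by nearest gene and distance from its start site (y axis). Colour and shape give the comparison, and the grey band spans -25 to 25 points, where no window is listed. The Fzd1 window is higher in both comparisons with IDH1wt, and the Fzd2 windows lie on the right for IDH1mut minus IDH1wt and on the left for R-2HG minus IDH1mut.

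Wnt5a encodes a ligand best known for signalling without beta-catenin, and was the only ligand gene among the 4. Its single window (chromosome 14, 29183501 to 29184000) lay upstream of the start site of transcript NM_009524, at a distance of -134659 bp. This window was lower in R-2HG than in IDH1wt in the authors' deposited table, with a difference of -26.4 points and a q of 2.2e-14. It was not listed for IDH1mut against IDH1wt or for R-2HG against IDH1mut. By size it ranked 594 of 750 in its list, so 79.2% of the listed windows were at least as large. Windows more than 50 kb from a start site made up 31.2% of that list. In the gene order of RefSeq (GRCm38.p6) the protein-coding gene before Wnt5a is Erc2, and no window nearest to another gene was listed within 500 kb of the Wnt5a window.

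Fzd1 encodes a Frizzled receptor and is known as a gene with a single exon. Its window (chromosome 5, 4755751 to 4756250) lay 1967 to 2466 bp downstream of the start site of NM_021457, which is on the minus strand. The authors' deposited table gave this window a difference of 33.8 points for IDH1mut minus IDH1wt. Their deposited table for R-2HG minus IDH1wt gave the same window 26.6 points. The window thus stood higher than IDH1wt in both groups, and the q was 0 in both tables. The authors' p-value was likewise 0 here, as at 70.9% and 68.7% of all windows listed for IDH1mut and for R-2HG against IDH1wt. Both comparisons use the same IDH1wt libraries, so they are not independent. Subtraction of the 2 authors' differences put R-2HG -7.20 points from IDH1mut, and the window was not listed in that direct comparison. Over all 385 windows listed in these 2 tables but not in the remaining one, the same subtraction had a median of -3.04 points with quartiles of -8.37 and -0.05. Fzd1 therefore lay between the lower quartile and the median of these windows. The 2 listed differences had the same sign at all 385 windows, so the shared direction at Fzd1 follows from the listing. The Fzd1 window ranked 476 of 1493 by size for IDH1mut and 567 of 750 for R-2HG. No window nearest to another gene was listed within 500 kb of it.

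Since RRBS reads start at MspI sites, the sequence upstream of the start is shown for Fzd1 and, for comparison, for the 2 other Wnt pathway genes with a window just upstream of their start site, Rspo1 and Nrcam. Each stretch is the 250 bases before a RefSeq start site, 5′ to 3′ on the gene's strand, and capitals mark the MspI site CCGG.

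Fzd1 (GRCm38.p6, chr5:4758217-4758466, minus strand): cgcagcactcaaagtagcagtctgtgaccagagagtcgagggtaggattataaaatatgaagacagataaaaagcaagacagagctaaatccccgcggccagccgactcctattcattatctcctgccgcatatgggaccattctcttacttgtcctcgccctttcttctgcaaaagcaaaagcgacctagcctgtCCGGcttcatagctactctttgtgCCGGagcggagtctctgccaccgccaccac

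Rspo1 (GRCm38.p6, chr4:124986180-124986429, plus strand): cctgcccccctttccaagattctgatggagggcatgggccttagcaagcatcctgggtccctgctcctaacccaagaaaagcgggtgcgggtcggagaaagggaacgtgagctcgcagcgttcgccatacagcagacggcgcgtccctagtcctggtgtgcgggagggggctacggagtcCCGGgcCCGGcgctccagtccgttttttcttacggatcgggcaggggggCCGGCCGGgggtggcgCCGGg

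Nrcam (GRCm38.p6, chr12:44328635-44328884, plus strand): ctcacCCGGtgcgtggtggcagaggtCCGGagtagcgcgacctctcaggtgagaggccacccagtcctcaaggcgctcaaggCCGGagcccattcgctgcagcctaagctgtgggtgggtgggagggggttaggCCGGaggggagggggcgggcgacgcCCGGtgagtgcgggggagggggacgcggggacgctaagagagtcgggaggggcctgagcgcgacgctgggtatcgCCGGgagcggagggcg

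The Fzd1 stretch held 2 CCGG sites and 12 CG dinucleotides with 51.2% G and C, against 5 sites, 22 CG and 66.8% in Rspo1 and 6 sites, 25 CG and 72.4% in Nrcam. Of 32851 promoters of the same length in the RefSeq table, 47.1% held CCGG, 26.5% held at least as many as Fzd1, and the median number of CG was 6. The sequence CTTTGA, part of the motif bound by TCF/LEF factors, was searched on both strands. It occurred 1 time in Fzd1 and not in the Rspo1 or Nrcam stretch, and 13.8% of all promoters held it. These are matches of letters and not shown to be sites in use. The listed Fzd1 window lies downstream of the start and outside the stretch shown, so the data give no listed difference within that promoter.

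Fzd2 encodes another Frizzled receptor, also known as a gene with a single exon. Its 4 windows spanned 1500 bp (chromosome 11, 102466751 to 102468250), from 1008 to 2507 bp downstream of the start site of NM_020510 on the plus strand. The window at 1008 bp was 25.01 points higher in IDH1mut than in IDH1wt in the authors' deposited table. The same window was lower in R-2HG than in IDH1mut, with -28.6 points in the authors' deposited table of that comparison. The window starting at 1758 bp repeated this with 29.4 points for IDH1mut minus IDH1wt and -33.8 points for R-2HG minus IDH1mut, from the authors' deposited tables. At both windows IDH1mut was the group that stood apart, which follows from their being listed in these 2 tables and not in the remaining one. The 2 differences had the same sign at 0 of all 248 windows listed this way. Subtraction of the authors' differences put R-2HG -3.58 points from IDH1wt at the window at 1008 bp and -4.38 points at the window at 1758 bp. For the 248 windows listed in these 2 tables but not for R-2HG against IDH1wt, the same subtraction had a median of 1.29 points with quartiles of -3.02 and 6.76. Both Fzd2 values were below that lower quartile.

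The other 2 Fzd2 windows were listed in the direct comparison only. In the authors' deposited table of IDH1mut with R-2HG, the window at 1508 bp differed by -25.1 points and the window at 2008 bp by -33.1 points. Which group moved from IDH1wt cannot be told at these 2 windows. No window starting between 1008 and 1508 bp was listed in any table. The windows at 1508, 1758 and 2008 bp overlap by 250 bp from one to the next and share CpGs, and the window at 1008 bp touches the next without overlap. The 4 windows are therefore not 4 separate measurements. The window at 1008 bp was just inside the threshold for IDH1mut, ranked 1490 of 1493 by size, and the window at 1508 bp was ranked 587 of 603 in its list. Windows just outside 25 points are not in the tables. At -33.8 points the window at 1758 bp ranked 165 of 603. In the authors' deposited table of IDH1mut with R-2HG, 6 of the 369 genes had 4 or more listed windows. In that of IDH1mut with IDH1wt, 472 of 881 genes had at least the 2 windows of Fzd2. Nothing is read from these counts, since the listing chose the gene and neighbouring windows overlap. For all 6 Fzd2 entries the authors' q was 0, and so was the p-value. A p-value of 0 was common, at 70.9% of all windows listed for IDH1mut against IDH1wt and 81.9% for R-2HG against IDH1mut.

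**Figure D2:**
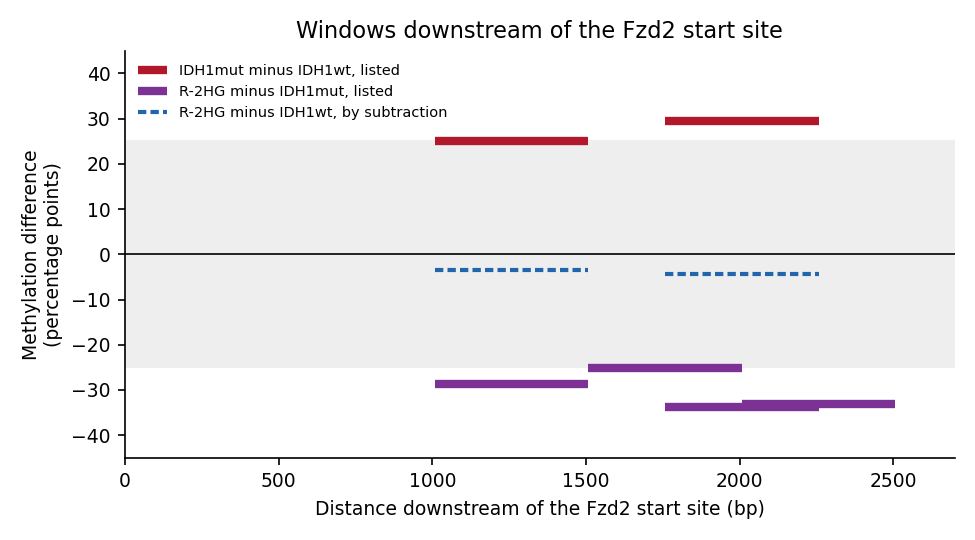
Methylation difference in percentage points (y axis) against distance downstream of the Fzd2 start site in bp (x axis). Each bar spans a window of 500 bp, thick bars are the authors' differences, dashed bars are R-2HG minus IDH1wt by subtraction, and the grey band spans -25 to 25 points. IDH1mut minus IDH1wt stands at 25.01 and 29.4 points, R-2HG minus IDH1mut between -25.1 and -33.8 points, and the subtracted values at -3.58 and -4.38 points.

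**Figure D3:**
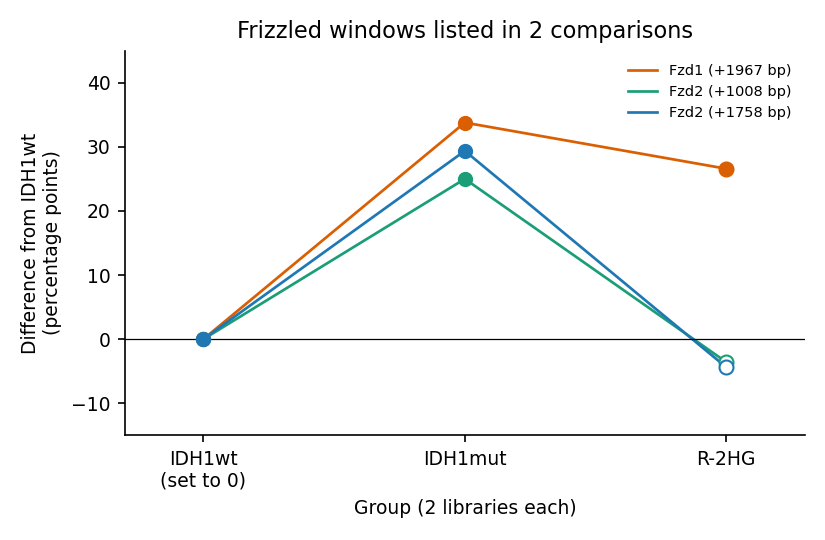
Difference from IDH1wt in percentage points (y axis) for the 3 groups (x axis) at the 3 Frizzled windows listed in 2 tables. Filled points are the authors' differences with IDH1wt set to 0, open points come from subtraction, and lines join the values of a window and stand for no time course. Fzd1 stays at 26.6 points in R-2HG, while the Fzd2 windows are at -3.58 and -4.38 points there.

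Within 500 kb of the Fzd2 windows, Fam171a2 was the only other gene with listed windows, at -149750 and -149500 bp from the first Fzd2 window. At these 2 windows of Fam171a2 the authors' deposited tables gave -52.5 and -52.8 points for R-2HG minus IDH1wt and -49.2 and -51.0 points for R-2HG minus IDH1mut. Near Fam171a2 it was thus R-2HG that stood apart from both other groups, unlike at Fzd2, as the pair of tables listing each window entails. A test of this difference was not possible without values per library.

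Genes with windows most like those of the 2 receptors were found by the distance in points over the 2 listed comparisons, among windows listed in the same tables. For Fzd1, 384 windows of 228 other genes could be compared. The nearest were windows of Gm1821, Lysmd4 and Epb4.1l3, at 0.78, 1.24 and 1.27 points, and the authors' deposited differences at Gm1821 were 34.6 for IDH1mut and 26.6 for R-2HG. For Fzd2, 246 windows of 153 other genes could be compared. Prrxl1, 2610524H06Rik and Ttn were nearest to the window at 1008 bp, at 0.54, 0.86 and 0.91 points. Siglech, Piezo1 and Gas1 were nearest to the window at 1758 bp, at 0.32, 0.61 and 1.28 points. This likeness rests on 2 differences among 3 groups.

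Ctnnb1 encodes beta-catenin, the effector of the canonical branch. Its 2 windows (chromosome 9, 120985251 to 120986000) lay 142557 and 142807 bp downstream of the start site of NM_001165902 and overlap by 250 bp. Both were lower in IDH1mut than in IDH1wt in the authors' deposited table, with differences of -29.3 and -26.1 points and a q of 0. Neither window was listed for R-2HG against IDH1wt or against IDH1mut. By size they ranked 812 and 1263 of 1493. Windows more than 50 kb from a start site made up 31.1% of that list. In the same list 70.9% of windows had a p-value of 0, as both Ctnnb1 windows did. The next protein-coding genes after Ctnnb1 in RefSeq order are Ulk4 and Trak1. From the positions and distances in the files, the Ulk4 start site is 200291 bp beyond the Ctnnb1 windows and Ulk4 is read towards them. The windows therefore lie between the start sites of 2 genes that face each other, and their label as Ctnnb1 follows from distance to a start site alone. A window nearest to Ulk4, starting 73000 bp from the first Ctnnb1 window, was listed in the authors' deposited table of IDH1mut with R-2HG, with -26.3 points. Windows nearest to Trak1, starting 336000 and 336250 bp from the first Ctnnb1 window, were higher in IDH1mut by 26.5 points in the authors' deposited table of IDH1mut with IDH1wt, opposite in sign to Ctnnb1.

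The rest of the pathway was described with a list of 115 Wnt genes, all of which have a RefSeq symbol. At least 1 table listed 14 of them, 12.2%, beside 4.72% of 21900 protein-coding RefSeq genes. For IDH1mut against IDH1wt, 12 of 115 were listed (10.4%, beside 3.38%), 8 with higher windows, 3 with lower windows and 1 with both, beside 582, 276 and 23 of all 881 listed genes. For R-2HG against IDH1wt, 4 were listed (3.48%, beside 1.75%), 2 higher and 2 lower, beside 291 higher, 156 lower and 5 with both of all 452 listed genes. For R-2HG against IDH1mut, 3 were listed (2.61%, beside 1.46%), 2 lower and 1 with both, beside 130 higher, 234 lower and 5 with both of all 369 listed genes. The list was made with part of these results known and includes the 4 genes above, and genes differ in CpG content and in the distance to their neighbours, so the shares are not tested and nothing particular to the pathway is read from them. Over the windows of the list the median difference for IDH1mut minus IDH1wt was 27.9 points, beside 27.5 points for all windows in the authors' deposited table. For R-2HG minus IDH1mut it was -29.5 points over 9 windows of 3 genes, beside -26.8 points for all windows of that deposited table. For R-2HG minus IDH1wt it was -0.51 points over 4 windows, beside 26.9 points for all windows. That value is only the midpoint between 2 higher windows (26.6 and 25.4 points) and 2 lower ones (-26.4 and -28.4 points). No listed window had so small a difference. These medians are of signed values from few genes, so they depend on the mix of higher and lower windows, some of which overlap. Nothing is read from how they stand to those of all listed windows.

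By role, listed genes were 2 of 19 ligands, 3 of 10 Frizzled receptors, 1 of 6 co-receptors, 1 of 9 genes of the R-spondin axis, 5 of 19 genes of the cytoplasmic relay and destruction complex, 1 of 15 nuclear effectors and 1 of 5 common target genes. None of the 14 extracellular inhibitors, the 2 secretion genes or the 16 genes of the polarity and calcium branch was listed. Over all protein-coding RefSeq genes 4.72% were listed in at least 1 table, and the lists by role are short. Fzd1, Fzd2, Ctnnb1 and Wnt5a are in these counts because they were listed, so nothing is read from how the roles compare. Wnt7a, a ligand gene, had the largest differences of the list. Its 2 overlapping windows, 10364 and 10614 bp downstream of its start, were higher in IDH1mut than in IDH1wt by 40.7 points in the authors' deposited tables and differed by -37.9 points for R-2HG minus IDH1mut. Subtraction put R-2HG 2.72 points from IDH1wt there, beside -3.58 and -4.38 points at Fzd2. Without replicate error no contrast is read between these values. At both genes IDH1mut was the group that stood apart, which follows from the same pair of tables listing their windows. Both Wnt7a windows carry the same difference, as 33.2% of overlapping pairs do in the authors' deposited table of IDH1mut with IDH1wt. Btrc encodes the F-box protein that recognises marked beta-catenin. The authors' deposited tables gave its window at 87279 bp as higher than in IDH1wt by 28.8 points in IDH1mut and 25.4 points in R-2HG. As at Fzd1, the shared direction follows from the pair of tables listing the window, and all 385 such windows had it. Subtraction put R-2HG -3.39 points from IDH1mut at Btrc, beside a median of -3.04 points over those windows. Fbxw11, the paralogue of Btrc, was lower in IDH1mut, with -33.9 points in the authors' deposited table for a window at -27805 bp and a q of 0.00073, the largest q of the list for that comparison.

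Rspo1, a secreted enhancer of Wnt signalling, and Nrcam, a cell adhesion gene known as a target of beta-catenin, were the genes of the list with windows ending just upstream of a start site. In the authors' deposited table of IDH1mut with IDH1wt, Rspo1 was higher by 28.4 points in windows at -424 and -174 bp, and Nrcam by 25.6 points in a window at -122 bp. Other Rspo1 windows pointed both ways. They differed in the authors' deposited table of IDH1mut with R-2HG by 26.0 points at 6829 bp and by -29.5 points at 20829 and 21079 bp. Csnk1e, a casein kinase of the relay, was in the authors' deposited table higher in IDH1mut by 30.5 and 27.9 points in windows at -13515 and -13765 bp. Nkd2, which restrains Dishevelled, was in the same deposited table higher in IDH1mut by 28.5 and 27.9 points in windows at -30673 and -30923 bp. Tle3, a corepressor of TCF/LEF factors, was lower in IDH1mut with -26.1 to -34.5 points in 3 windows at 137080 to 137580 bp of its start in the authors' deposited table. The third Frizzled gene, Fzd10, had in the authors' deposited table of IDH1mut with IDH1wt a window of -27.8 points at 44772 bp and one of 31.7 points at 55272 bp. Ror2, a receptor for Wnt5a, was lower in R-2HG than in IDH1wt, where the authors' deposited table gave -28.4 points for a window at 110479 bp, with a q of 0.0048. Against IDH1wt, the genes of the list lower in R-2HG were thus Ror2 and Wnt5a. Each had a single such window, more than 100 kb from its start. Against IDH1mut, the windows of Fzd2 and Wnt7a and part of those of Rspo1 were lower in R-2HG.

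**Figure D4:**
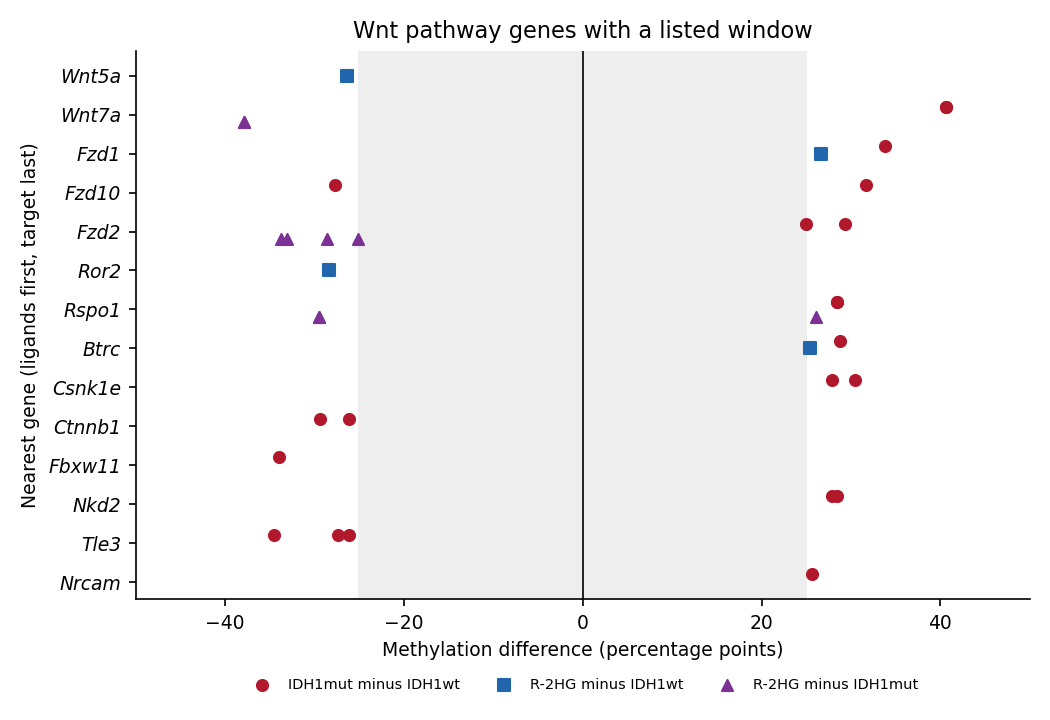
Methylation difference in percentage points (x axis) of every listed window of the 14 Wnt pathway genes (y axis, ordered by role from ligands to a target gene). Colour and shape give the comparison, and the grey band spans -25 to 25 points. Wnt7a and Fzd2 have windows on both sides, higher for IDH1mut minus IDH1wt and lower for R-2HG minus IDH1mut, while Fzd1 and Btrc are higher in both comparisons with IDH1wt.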

How the data were processed

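RRBS was done on 6 libraries in 3 groups of 2. The submitters' processing notes name Trim Galore, BSMAP, methylKit 0.9.1 and build mm9. Not given in the sources used here are their settings, any filter on coverage and the test. The authors deposited 3 tables of comparisons between groups, with a p-value and q-value, a signed score (the methylation difference in percentage points) and the distance to the nearest start site of each window, per the file headers. It is unknown whether those p-values include the spread between libraries. Windows were 500 bp long and began 250 bp apart, every listed difference was at least 25 points in size and the largest q was 0.00995. Rows repeated for 1 window were counted once, which removed 64, 4 and 1 rows.

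The sign of the IDH1wt with R-2HG table was turned, since this was the 1 order of 4 in which the differences added up at the 3 windows common to all tables (residual 0). It also left a difference under 25 points at all 705 windows found in exactly 2. The absolute direction follows methylKit's treated minus control with the group named second as treated in the other 2 tables, and is not stated in the files. Windows of a gene with gaps of up to 1000 bp were joined, which gave 4 loci. The sign search and the joining were tested on simulated data and recovered 4 of 4 orders and 300 of 300 loci. The simulated differences held no noise and the simulated loci lay further apart than the joining gap. This therefore checks the code alone and says nothing about these data.

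Named genes are the 4 members, every listed gene of the Wnt list, the 3 genes most like each window listed in 2 tables, and genes with a listed window within 500000 bp. The members and lists were chosen with earlier results of these data known. Transcripts were matched to RefSeq (GRCm38.p6) by accession for 2104 of 2135 windows. RefSeq promoter sequences were used for Fzd1, Rspo1 and Nrcam, and 1133 of 1133 overlapping opposite-strand pairs in that table matched when reverse complemented. No coordinates were moved between builds. Python 3.11.15 with pandas 2.3.3 was used. Alternatives were a stricter difference or q, distance limits, the joining gap and the opposite sign reading.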

Additional observations from a re-analysis of the deposited data

How the results depend on the processing

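Of 26 alternative values 15 stayed within 1.5 times the reported count and 11 did not. With differences of at least 30 points, the windows of the 4 genes went from 5 to 1 (Fzd1) for IDH1mut against IDH1wt, from 2 to 0 for R-2HG against IDH1wt and from 4 to 2 (Fzd2) for R-2HG against IDH1mut. Listed Wnt genes then went from 12 to 6 for IDH1mut and from 4 to 0 for R-2HG against IDH1wt. Keeping windows within 50000 bp, and likewise within 2000 bp, of the start site left 3 of 5 windows for IDH1mut and 1 of 2 for R-2HG against IDH1wt, since the Ctnnb1 and Wnt5a windows fell away, and within 50000 bp 1 of 4 Wnt genes was left for R-2HG against IDH1wt. Under the opposite reading of all 3 tables the higher windows for R-2HG against IDH1mut went from 0 to 4. For IDH1mut against IDH1wt they went from 3 to 2, and for R-2HG against IDH1wt they stayed at 1. Both of these count among the 15, although every window changes direction. A q of at most 0.0001 and rows as deposited changed no count of windows of the 4 genes. No paired analysis was possible because the tables hold differences between groups and no values per library, and for the same reason no library could be left out. The unknown depth means that no interval can be set around a difference.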

Other observations

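Markers of myeloid, erythroid, lymphoid and stromal cells were looked up among the nearest genes. None of 12 myeloid and none of 6 erythroid markers was listed in any table. Of 10 lymphoid markers Gata3 was listed for IDH1mut against IDH1wt and for R-2HG against IDH1mut, and Ebf1 for R-2HG against IDH1wt. Of 6 stromal markers Col1a1 was listed for IDH1mut against IDH1wt, and Col1a1 and Lepr for R-2HG against IDH1mut. Tables of differences give no level of any marker, so the makeup of the sorted cells was not tested. Over all 21900 protein-coding RefSeq genes 3.38% were listed for IDH1mut against IDH1wt, 1.75% for R-2HG against IDH1wt and 1.46% for R-2HG against IDH1mut, at which fewer than 1 gene of a list this short would be listed, so nothing is read from these counts.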
